A study of Mus musculus with 72 samples.

Results

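The expression of 6 immunoglobulin genes out of the 55401 genes in the tables was followed through all 72 RNA-Seq libraries of a study of muscle *Bmal1* in mice. The genes are *Ighm*, *Ighg2c*, *Ighg2b*, and *Igha*, which encode the constant parts of the heavy chains of IgM, IgG2c, IgG2b, and IgA, *Igkc*, which encodes the constant part of the kappa light chain, and *Jchain*, which encodes the joining chain of polymeric IgM and IgA. They were chosen by name after *Ighm* had come up among the genes that were lower in KO+GFP than in KO muscle, so the *Ighm* values of that comparison are given below as a description, with no test. BMAL1 is a transcription factor of the circadian clock, and the study asked how its return to skeletal muscle affects global *Bmal1*-KO mice and their other tissues.

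All mice were males. Gastrocnemius, a hindlimb muscle, came from WT littermates, from *Bmal1*-KO mice, which lack *Bmal1* in every tissue, and from KO+AAV mice, which are *Bmal1*-KO mice injected at postnatal day 5 with an AAV9 vector that carries HA-tagged *Bmal1* under the muscle promoter CK6. There were 6 WT, 6 KO, and 7 KO+AAV libraries at 10 weeks of age and 5 of each at 40 weeks, all collected at ZT1. A separate experiment at 10 weeks compared 3 KO+GFP with 3 control KO libraries, both groups on the *Bmal1*-KO background. The titles alone name the GFP group, and per the study's text these pups received AAV9 with GFP under CK6 at postnatal day 5. Lung, heart, liver, and white fat came from 4 KO and 4 KO+AAV mice at 40 weeks, with no WT mice. The labels do not say which tissues came from the same mouse, and *P* values measure the spread between these libraries. The vector was given systemically and was meant to be expressed in skeletal muscle alone. The study found more vector copies in liver and heart than in skeletal muscle. It detected no HA-tagged protein in heart, liver, or lung. Effects of the vector itself in the other tissues cannot be told apart from those of *Bmal1* in muscle. The same holds within KO+AAV versus KO muscle, since the GFP vector was given only in the separate experiment.

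Reads counted on genes were 9325122 to 41733282 per gastrocnemius library (median 11796140), 6754312 to 8515400 in the GFP experiment, and 36903079 to 50755829 in the other tissues. Some libraries stood apart. *Arntl*, the gene for BMAL1, had 1039 normalized counts in the muscle library labelled KO replicate 2 at 40 weeks, which goes against that label, above the 308 to 395 of the other KO libraries and the 480 to 608 of WT muscle. KO heart replicate 2 held liver transcripts (859141 normalized counts of *Alb*, against 153 to 216 in the other KO hearts), KO white fat replicate 2 held 748500 normalized counts of the epididymal gene *Gpx5* (0 to 1.61 in the other fat libraries), and the lung libraries held *Myh6*, the heart myosin, at 1918 to 19027 normalized counts in KO and 30771 to 100517 in KO+AAV mice. Results that rest on the muscle, heart, and fat libraries are given with and without them.

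An antibody is built of paired heavy and light chains. In a B cell, recombination joins variable (V) segments to the constant genes, so that a complete heavy or light chain transcript starts with a V segment and ends with a constant part. IgM is made first, class switching replaces its constant part by that of an IgG or IgA, and plasma cells, the secreting end stage, make very large amounts of heavy chain, light chain, and J chain. *Ighg2c* is the form of this IgG gene in C57BL/6 mice, while several other strains carry *Ighg2a* in its place.

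The 4 heavy chain genes lie within 1 cluster on chromosome 12, on the minus strand of GRCm38: *Ighm* (ENSMUSG00000076617, 113418558 to 113422730), *Ighg2b* (ENSMUSG00000076613, 113302965 to 113307933), *Ighg2c* (ENSMUSG00000076612, 113285325 to 113288932), and *Igha* (ENSMUSG00000095079, 113254830 to 113260236). *Igkc* (ENSMUSG00000076609) lies on the plus strand of chromosome 6 from 70726435 to 70726966, and *Jchain* (ENSMUSG00000067149) on the minus strand of chromosome 5 from 88519809 to 88527891. The first 90 bases of the first constant exon of each immunoglobulin gene, from GRCm38 with GENCODE vM21 exons, are shown because the results turn on reads being told apart between these constant regions. Capitals mark the 7 positions at which *Ighg2c* and *Ighg2b* differ.
Ighm, chr12:113422641-113422730, minus strand: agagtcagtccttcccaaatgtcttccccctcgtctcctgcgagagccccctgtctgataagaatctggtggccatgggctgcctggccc
Ighg2c, chr12:113288843-113288932, minus strand: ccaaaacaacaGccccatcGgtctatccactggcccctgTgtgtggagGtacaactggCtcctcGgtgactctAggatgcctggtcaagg
Ighg2b, chr12:113307844-113307933, minus strand: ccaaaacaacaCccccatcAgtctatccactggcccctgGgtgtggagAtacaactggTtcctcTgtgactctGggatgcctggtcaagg
Igha, chr12:113260147-113260236, minus strand: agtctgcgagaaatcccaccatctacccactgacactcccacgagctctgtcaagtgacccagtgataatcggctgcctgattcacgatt
Igkc, chr6:70726435-70726524, plus strand: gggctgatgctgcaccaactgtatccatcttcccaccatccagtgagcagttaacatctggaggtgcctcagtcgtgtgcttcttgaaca

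*Ighg2c* and *Ighg2b* are the closest pair of the 4 heavy chain genes. Their coding parts of 1004 and 1007 bases had 862 identical and 142 different bases, an identity of 85.9%. For each of these 5 genes, 1 annotated transcript was searched, and no stretch of 150 bases, the read length, occurred in the transcripts of another gene. A full-length read without errors from these transcripts thus belongs to 1 gene. Other annotated forms of the 5 genes were not searched. The *Ighg2c* reads in muscle came with almost no *Ighg2b* reads: 724 reads of *Ighg2c* and 3 reads of *Ighg2b* were counted over the 34 gastrocnemius libraries. Whether counting used the strand is not given in the sources used here, so reads of transcripts from the opposite strand cannot be told apart.

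Gastrocnemius expressed the IgM heavy chain gene with hardly any light chain, J chain, or V segment reads. The label of immunoglobulin and plasma cell genes was not borne out by the defining markers in muscle, and the genes are therefore called by their names here. Levels are compared between genes and tissues as RPKM, the reads on a gene per 1000 bases of annotated exon with the library scaled to 1000000 reads counted on genes, and summed levels of a list as RPM, the same without the length. In gastrocnemius *Ighm* averaged 41.7 RPKM (3.19 to 80.1, n = 34), against 0.413 for *Igkc* (0 to 1.24) and 0.10 for *Jchain* (0 to 0.345). In whole reads, the 34 libraries held 53116 reads of *Ighm* but 133 of *Igkc*, 156 of *Jchain*, and 91 of *Igha*. *Igkc* was at 0 reads in 7 of the 34 libraries, *Jchain* in 6, *Igha* in 9, and *Ighg2c* in 13. The 3 reads of *Ighg2b* were all in the library labelled KO replicate 2 at 40 weeks.

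Of 348 annotated V segments (185 heavy, 160 kappa, and 3 lambda), muscle libraries held 0 to 11 reads in all (median 2, total 124), and no library had more than 1 segment with 3 or more reads. There were 1.56 V segment reads per 1000 *Ighm* reads at the median and 17.5 at most. The 14 B cell markers in the tables, of 15 listed, summed to 0.495 to 5.07 RPM in muscle (median 1.58), and 0 of them had a mean normalized count above 5, the minimum for a test. *Cd79a*, the signaling partner of the B cell receptor, averaged 0.146 RPKM in muscle, and *Ms4a1*, the gene for CD20, was at 0 reads in 15 of 34 muscle libraries. Of the 7 other immunoglobulin constant genes, also 0 could be tested in muscle, and their sum was 0 to 1.53 RPM. All 5 gastrocnemius markers passed the minimum.

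**Figure D1:**
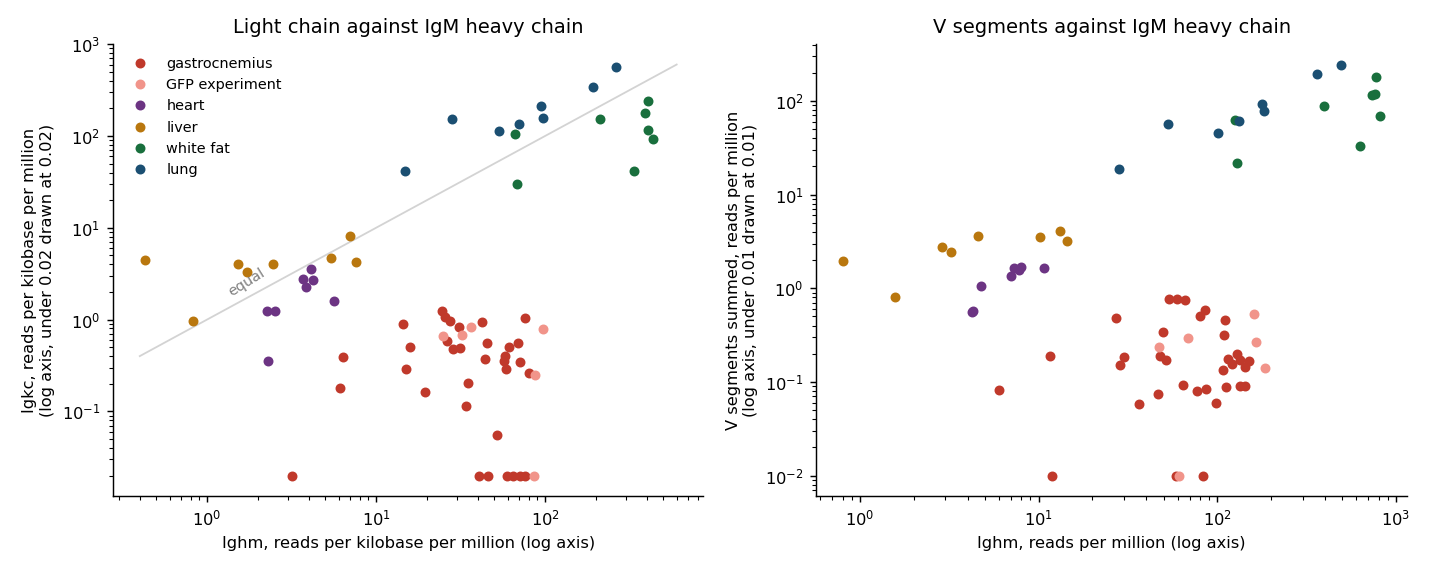
*Igkc* against *Ighm* in RPKM with the line of equal levels (left) and summed V segments against *Ighm* in RPM (right), all on log axes, 1 point per library, colored by tissue, with values under 0.02 RPKM and 0.01 RPM drawn at those levels. The gastrocnemius libraries lie at 3.19 to 80.1 RPKM of *Ighm* with at most 1.24 RPKM of *Igkc* and at most 11 V segment reads, below the libraries of lung and white fat on both vertical axes.

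*Ighm* in gastrocnemius was lower in KO+AAV than in KO mice at 10 weeks, and lower in both than in WT mice by mean at 40 weeks. Of the 6 genes, *Ighm* and *Ighg2c* passed the minimum mean normalized count of 5 over the 34 libraries, and the other 4 genes did not. *Ighg2c*, at a mean of 27.9, would have missed it without the WT libraries (mean 4.32), so its passing rests on the group where it was high, and its adjusted *P* values below come from the same model fitted to all genes with no minimum. Normalized counts were deposited by the authors as reads divided by 1 size factor per library, and values of 1 gene are compared on this scale within a tissue. In bulk muscle, fewer cells of a type and less RNA per cell cannot be told apart.

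At 10 weeks, the lowest, median, and highest normalized count of *Ighm* was 835, 1675, and 2049 among the WT libraries (mean 1531 ± 505, SD, n = 6). The KO libraries ran through 1368, 2221, and 2463 (2096 ± 422, n = 6), and the KO+AAV libraries through 432, 856, and 1294 (874 ± 294, n = 7). Every KO+AAV library lay below every KO library, while WT overlapped with both. The share of all genes without overlap was counted only in the GFP experiment. Lack of overlap in the other muscle comparisons is therefore a description. At 40 weeks, the 5 WT libraries had 2311, 1802, 1818, 2292, and 1302 normalized counts (1905 ± 417, SD), and the 5 KO libraries 1338, 217, 178, 1092, and 1325 (830 ± 586). The 5 KO+AAV libraries had 454, 102, 702, 774, and 448 (496 ± 264). KO muscle at this age thus held 3 libraries above 1000 and 2 near 200, with 2 of the higher ones inside the WT range, and all KO+AAV libraries lay below all WT libraries. Ordered by mean, the groups ran from KO at 10 weeks through WT at 40 weeks, WT at 10 weeks, KO+AAV at 10 weeks, and KO at 40 weeks to KO+AAV at 40 weeks, and the libraries of each pair of neighbors in this order overlapped.

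**Figure D2:**
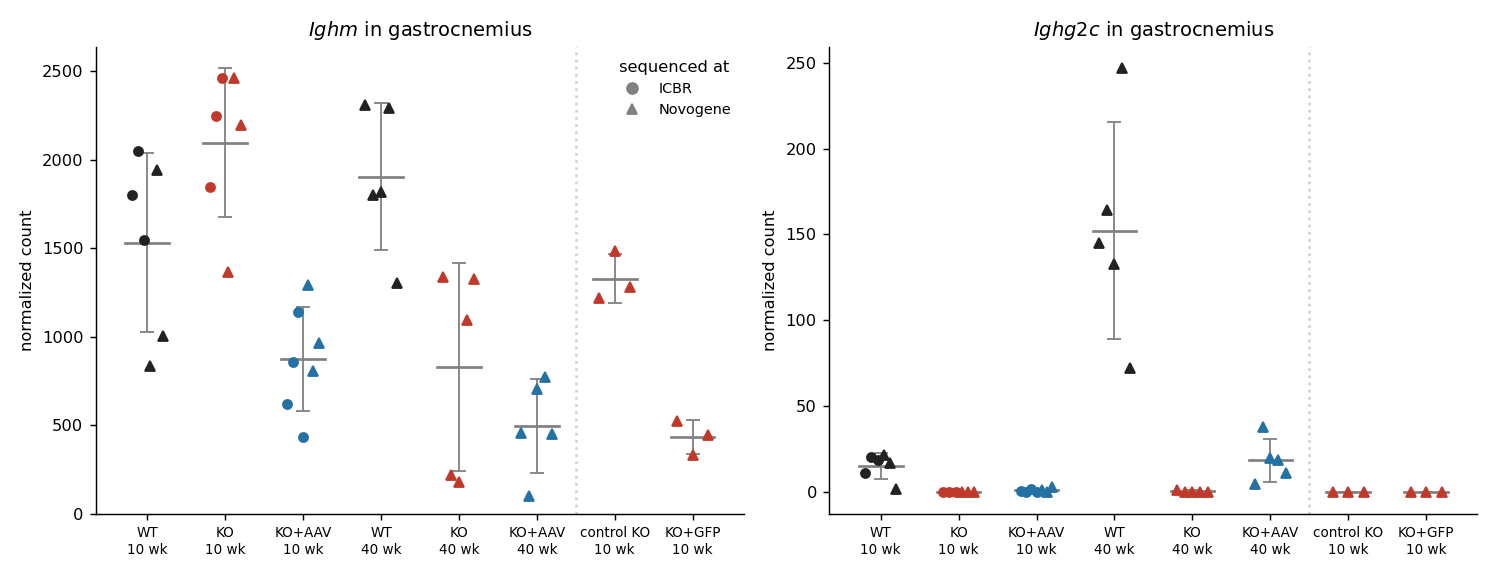
Normalized counts of *Ighm* and *Ighg2c* in every gastrocnemius library of WT, KO, and KO+AAV mice at 10 and 40 weeks, 1 point per library, and right of the dotted line in the separately normalized GFP experiment, with the mean and SD of each group and the sequencing site as the symbol. *Ighm* was present in all groups, with the KO libraries at 10 weeks at 1368 to 2463 and the KO+AAV libraries at 432 to 1294, while *Ighg2c* rose above 50 only in WT muscle at 40 weeks (71.9 to 247).

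DEGs are genes with *P* under 0.01 in limma's moderated test, the threshold of the study, with Benjamini-Hochberg adjusted *P* values over the 16199 genes tested in muscle. In KO+AAV versus KO at 10 weeks, *Ighm* was the 1 member called, where 2.63% of all genes were called: its log2 fold change was -1.32 (SE 0.42, 95% CI -2.18 to -0.45), or 2.49-fold lower, with a limma adjusted *P* = 0.276 that does not pass correction over all genes. Within the ICBR libraries it was -1.60 and again a DEG (4 KO+AAV against 3 KO, limma adjusted *P* = 0.128), and within the Novogene libraries -0.96 and no DEG (3 against 3, limma adjusted *P* = 0.9996). Mean *Ighm* was 763 ± 306 in KO+AAV and 2185 ± 313 in KO at ICBR and 1022 ± 248 and 2007 ± 569 at Novogene, so the direction was the same at each site. In WT versus KO at 10 weeks the log2 fold change of *Ighm* was -0.50 (95% CI -1.40 to 0.39, limma adjusted *P* = 0.611). Against KO+AAV muscle WT differed by 0.81 (95% CI -0.05 to 1.68, limma adjusted *P* = 0.308), and neither was past the threshold. At ICBR alone the latter was 1.32 and a DEG (limma adjusted *P* = 0.0328), and at Novogene alone it was 0.23 (limma adjusted *P* = 0.964).

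At 40 weeks *Ighm* was called in WT versus KO and in WT versus KO+AAV. WT exceeded KO by 1.65 on the log2 scale (SE 0.48, 95% CI 0.67 to 2.62, limma adjusted *P* = 0.0122), or 3.13-fold. This rested on the 2 lowest KO libraries: without the library labelled KO replicate 2, whose *Arntl* goes against the label, it was 1.28 (limma adjusted *P* = 0.0558), and without KO replicate 3 it was 1.21 (limma adjusted *P* = 0.0581), and *Ighm* was no longer a DEG in either. In WT versus KO+AAV it was 2.19 (SE 0.48, 95% CI 1.21 to 3.17, limma adjusted *P* = 0.00218), or 4.56-fold, and this call held with any library left out. KO+AAV and KO muscle differed by -0.54 (95% CI -1.52 to 0.44, limma adjusted *P* = 0.759), an interval that includes both no difference and the difference seen at 10 weeks. Leaving out 1 library gave -0.98 to -0.046 for KO+AAV versus KO.

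Between ages, *Ighm* was 3.37-fold lower at 40 than at 10 weeks in KO muscle (log2 fold change -1.75, SE 0.49, limma adjusted *P* = 0.0257), and the libraries of the 2 ages did not overlap. All KO libraries at 40 weeks were sequenced at Novogene, and with the Novogene libraries alone the change was -1.71 and no longer a DEG (limma adjusted *P* = 0.125). The change with age was 0.39 in WT (limma adjusted *P* = 0.907) and -0.98 in KO+AAV muscle (limma adjusted *P* = 0.216). The difference of WT versus KO between ages, tested as an interaction, was 2.15 for *Ighm* (SE 0.65, limma adjusted *P* = 0.135), past the DEG threshold but not the adjusted one. The corresponding interactions were 1.37 for WT versus KO+AAV (limma adjusted *P* = 0.394) and 0.77 for KO+AAV versus KO (limma adjusted *P* = 0.944).

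*Ighg2c* was found almost only in WT muscle and in KO+AAV muscle at 40 weeks. At 10 weeks the WT libraries had 1.51 to 21.4 normalized counts of *Ighg2c* (median 17.7, mean 14.9 ± 7.60, SD, n = 6), with WT replicate 7 at a single read and the other 5 at 10.8 or more. All 6 KO libraries were at 0, and the 7 KO+AAV libraries had 0 to 2.80 (0.88 ± 1.07), 3 of them at 0. Pooled over the libraries of a group, WT held 139 reads, KO 0, and KO+AAV 7. At 40 weeks the WT libraries had 145, 164, 133, 247, and 71.9 normalized counts (152 ± 63.3, SD, n = 5), the KO libraries 1.38, 0, 0, 0, and 0, and the KO+AAV libraries 4.78, 37.9, 20.0, 18.3, and 10.8 (18.4 ± 12.5). The pooled reads were 508, 1, and 69. No KO library reached the level of any KO+AAV or WT library of its age at 40 weeks.

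As RPM pooled over the group, *Ighg2c* was at least 46.1-fold higher in WT than in KO muscle at 10 weeks, with the KO group set to the floor of 3 reads over the group. At 40 weeks the ratio of WT to KO was 499.7, with an exact 95% interval of 89.3 to 19776 that covers counting error only, since KO rests on 1 read. The ratio of KO+AAV to KO was 62.4 (10.8 to 2500 by the same method), and that of WT to KO+AAV 8.01 (6.22 to 10.5). On the log2(count + 1) scale of the test, where folds of low counts are understated, WT exceeded KO by 3.71 at 10 weeks (SE 0.47, limma adjusted *P* = 4.97e-06) and by 6.90 at 40 weeks (SE 0.52, limma adjusted *P* = 1.47e-10). WT exceeded KO+AAV by 2.99 at 10 weeks (limma adjusted *P* = 0.000188) and by 3.15 at 40 weeks (limma adjusted *P* = 0.000198). KO+AAV exceeded KO by 3.76 at 40 weeks (SE 0.52, limma adjusted *P* = 0.000239), while at 10 weeks the difference of 0.72 was not past the threshold (95% CI -0.21 to 1.65, limma adjusted *P* = 0.794). Leaving out 1 library at 40 weeks gave 6.70 to 7.15 for WT versus KO and 3.44 to 4.13 for KO+AAV versus KO.

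*Ighg2c* was higher at 40 than at 10 weeks in WT muscle by 3.47 on the log2 scale (SE 0.53, limma adjusted *P* = 0.00222) and in KO+AAV muscle by 3.31 (SE 0.53, limma adjusted *P* = 0.000339), with no overlap between ages in either. In KO muscle, at or next to 0 at both ages, the fitted change was 0.27 (limma adjusted *P* = 0.908). The interactions with age were 3.19 for WT versus KO (limma adjusted *P* = 0.0682) and 3.04 for KO+AAV versus KO (limma adjusted *P* = 0.746), DEGs that did not pass adjustment. Both calls ended with count models: DESeq2 gave 1.81 and 3.17 and edgeR 1.37 and 2.61, with adjusted *P* of 0.606 to 0.992. For WT versus KO+AAV the interaction was 0.16 (95% CI -1.25 to 1.57, limma adjusted *P* = 0.994). Its sign turned with the pseudocount and with count models.

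Counted over the 6 genes, 1 was called in WT versus KO at 10 weeks (*Ighg2c*, with 10.9% of all genes called) and 1 in WT versus KO+AAV at 10 weeks (*Ighg2c*, 8.75%). At 40 weeks both *Ighm* and *Ighg2c*, 2 members, were called in WT versus KO (22.5% of all genes) and against KO+AAV (14.6%), and *Ighg2c* alone between KO+AAV and KO (3.25%). Between ages 1 was called in WT (*Ighg2c*, 2.27% of all genes), 1 in KO (*Ighm*, 12.1%), and 1 in KO+AAV muscle (*Ighg2c*, also 12.1%). Of the interactions, 2 were called for WT versus KO (4.47% of all genes), 0 for WT versus KO+AAV (4.12%, with *Ighm* under 0.05 in limma's unadjusted *P*), and 1 for KO+AAV versus KO (1.08%). These counts are descriptions, since *Ighg2c* entered through the WT libraries. *Ighm* and *Ighg2c* did not move in step: in KO+AAV against KO muscle *Ighm* was lower at 10 weeks and *Ighg2c* higher at 40 weeks. Over the 34 libraries the residuals of *Ighm* and *Ighg2c* after group and site had a Pearson correlation of 0.15, and those of *Ighm* and *Igkc* of 0.00, given as descriptions. Both values are limited by the few reads of *Igkc* and, in KO muscle, of *Ighg2c*.

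**Figure D3:**
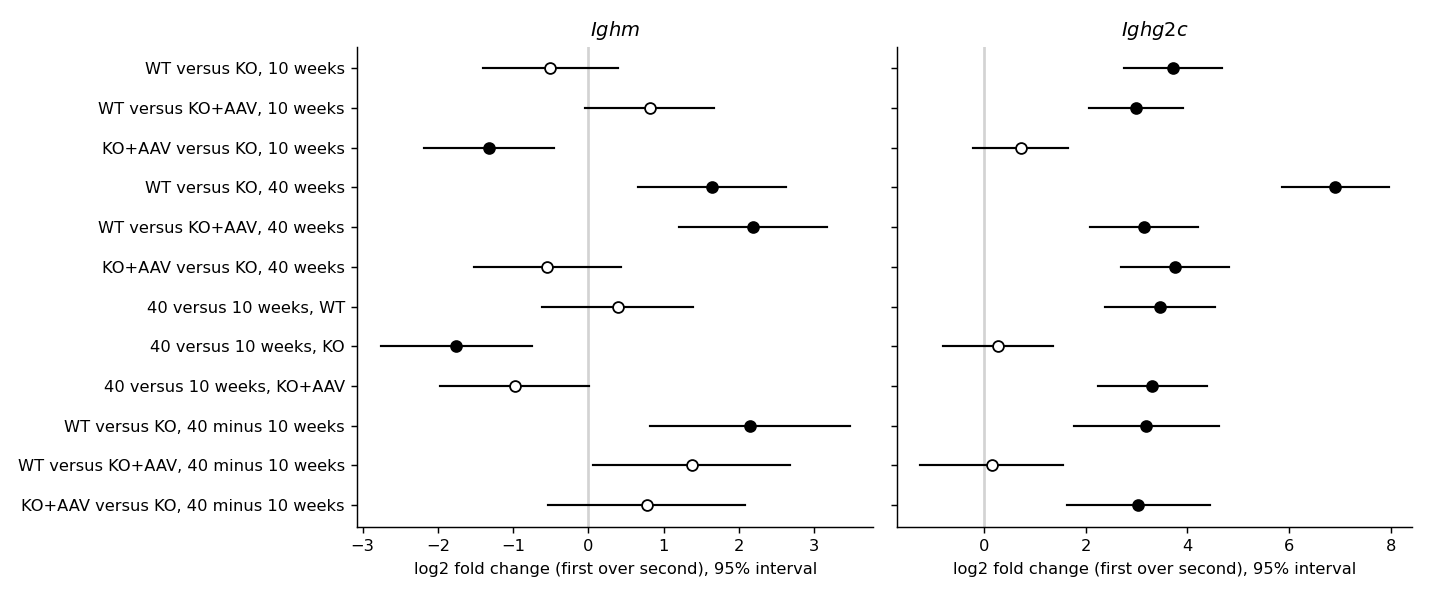
Log2 fold changes of *Ighm* and *Ighg2c* from limma in the gastrocnemius comparisons, with 95% confidence intervals as bars and the line of no change at 0. At 40 weeks *Ighg2c* lies at 6.90 in WT versus KO and at 3.76 for KO+AAV against KO, while *Ighm* in KO+AAV versus KO lies at -1.32 at 10 weeks and -0.54 at 40 weeks.

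The other 4 genes could not be tested in muscle. At 10 weeks the means of *Igkc* were 2.53 ± 3.0 normalized counts for the 6 WT, 4.15 ± 2.90 for the 6 KO, and 3.40 ± 2.75 for the 7 KO+AAV libraries (SD). *Jchain* had 2.47 ± 2.59, 4.39 ± 3.44, and 3.27 ± 1.27 in the same order, and *Igha* 2.37 ± 2.27, 0.97 ± 0.66, and 1.97 ± 2.39. At these counts, a difference between groups was not detectable at this depth.

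In the GFP experiment, the 3 KO+GFP libraries had 521, 331, and 446 normalized counts of *Ighm* (433 ± 95.6, SD), and the 3 control KO libraries 1217, 1482, and 1280 (1326 ± 139). All KO+GFP libraries were below all controls, with a log2 difference of -1.63, or 3.10-fold lower. This is the difference that led to the choice of the genes. Among the 14477 genes of this experiment, 8.24% were called at *P* under 0.01 and 23.5% had no overlap between 3 and 3 libraries. *Ighg2c* and *Ighg2b* had 0 reads in all 6 libraries, and *Igkc*, *Jchain*, and *Igha* had 0 to 3, 1 to 6, and 0 to 2 reads, so only *Ighm* could be measured. The summed macrophage markers, given beside it, were 85.7 to 135 RPM in KO+GFP and 34.5 to 50.3 in control KO libraries, and their part in the *Ighm* difference was not tested. *Ighm* was thus lower at 10 weeks with the GFP vector and also with the *Bmal1* vector (-1.32 in KO+AAV versus KO). The part of the vector itself in the latter difference was not tested.

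The lists of plasma cell program genes and of survival and homing factors showed few changes in muscle next to those of *Ighm* and *Ighg2c*. Of 13 plasma cell program genes 9 were tested, and 0 were DEGs at either age when WT or KO+AAV muscle was compared with KO. Their median log2 fold change was 0.15 in KO+AAV versus KO at 10 weeks and 0.23 in WT versus KO at 40 weeks, with all genes at 0.01 in both. Their most abundant genes were *Xbp1*, a transcription factor of secretory cells, and *Txndc5*, a disulfide isomerase of the endoplasmic reticulum, which have other sources in muscle. *Txndc5* was lower in WT than KO+AAV at 10 weeks (-0.31, limma adjusted *P* = 0.080) and lower at 40 than 10 weeks in KO muscle (-0.35, limma adjusted *P* = 0.0664), a DEG in both. Of 13 survival and homing factors of B and plasma cells 8 were tested and 0 were DEGs in any muscle comparison.

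Of 9 genes of antibody transport and Fc receptors 6 were tested, and 1 of them, *Fcgrt*, was a DEG in WT versus KO at each age, where 10.9% and 22.5% of all genes were called. *Fcgrt*, the neonatal Fc receptor that recycles IgG, averaged 552 ± 76.8 normalized counts over the 6 WT, 530 ± 67.8 over the 7 KO+AAV, and 433 ± 51.3 over the 6 KO libraries at 10 weeks (SD). At 40 weeks it averaged 442 ± 35.1, 351 ± 65.5, and 248 ± 41.6 in the same order (n = 5 each). WT exceeded KO by 0.34 on the log2 scale at 10 weeks (limma adjusted *P* = 0.0569) and by 0.84 at 40 weeks (limma adjusted *P* = 7.78e-06), and KO+AAV exceeded KO at 40 weeks by 0.49 (limma adjusted *P* = 0.0857), each a DEG. *Fcgrt* thus followed the order WT, KO+AAV, KO by mean at each age, as *Ighg2c* did, while its own folds were far smaller. With age the genes went opposite ways. Mean *Fcgrt* was lower at 40 than at 10 weeks in WT, KO+AAV, and KO muscle, while *Ighg2c* was higher in WT and KO+AAV muscle. Of the same 6 genes, *Fcgr2b* (1.35, limma adjusted *P* = 0.275), the inhibitory IgG receptor, and *Fcer1g* (1.29, limma adjusted *P* = 0.365), the signaling chain of activating Fc receptors, were DEGs, higher in KO+AAV than KO muscle at 10 weeks, though not after adjustment, where 2.63% of all genes were called. The median of the list was 1.28 there, with all genes at 0.01.

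Markers of other cell types moved with some of these comparisons. In KO+AAV versus KO at 10 weeks, where *Ighm* was lower, all 10 macrophage markers had positive fold changes (median 1.25), of which *C1qc*, a complement subunit, was a DEG (1.63, limma adjusted *P* = 0.232), and their sum was 50.6 to 582 RPM in KO+AAV and 25.1 to 83.0 in KO libraries. All 5 white fat markers also had positive fold changes there (median 0.97), with 0 DEGs. At 40 weeks, where *Ighg2c* was highest in WT, the T cell gene *Cd3e* averaged 29.0 ± 3.56 normalized counts in WT muscle against 3.94 ± 3.02 in KO and 2.75 ± 3.76 in KO+AAV muscle (SD, n = 5 each). WT exceeded KO by 2.95 on the log2 scale (limma adjusted *P* = 0.000285), and *Cd3e* was the 1 of 10 T cell markers with counts enough for a test. The 10 markers summed to 1.92 to 2.29 RPM in WT, 0.316 to 0.824 in KO, and 0.248 to 1.99 in KO+AAV libraries. Of these markers, 3 were at 0 reads in every WT library, so *Cd3e* does not speak for the list. White fat markers were also higher in WT than KO muscle at this age, with 5 of 5 positive fold changes (median 1.83) and 2 DEGs, *Lep* (5.82, limma adjusted *P* = 2.30e-06), the gene for leptin, and *Adipoq* (2.06, limma adjusted *P* = 0.0273), the gene for adiponectin. They summed to 19.5 to 100.6 RPM in WT, 12.4 to 36.8 in KO, and 12.9 to 59.5 in KO+AAV libraries, and *Lep* was also higher in WT than KO+AAV (4.11, limma adjusted *P* = 0.000572). The 1 liver marker tested, *Alb*, was higher in WT than KO by 3.61 (limma adjusted *P* = 0.0399). Summed liver markers were uneven, at 0.199 to 26.1 RPM in WT libraries (median 0.745) and 0 to 0.322 in KO libraries. B cell markers summed to 0.691 to 1.99 RPM in WT, 0.790 to 2.42 in KO, and 0.495 to 5.07 in KO+AAV muscle at 40 weeks, overlapping between groups. The part of these markers in the differences of *Ighm* and *Ighg2c* was not tested.

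In white fat and lung the IgM heavy chain came with light chain, J chain, and V segments. *Ighm* averaged 289 RPKM in white fat (66.5 to 433, n = 8) and 102 in lung (14.9 to 261), above the 41.7 of gastrocnemius, and 3.58 in heart (2.26 to 5.66) and 3.37 in liver (0.427 to 7.62). *Igkc* averaged 215 RPKM in lung (41.5 to 566), 119 in white fat (30.3 to 238), 4.24 in liver, 1.96 in heart, and 0.413 in gastrocnemius. *Jchain* averaged 17.9 RPKM in lung, 10.5 in white fat, 0.633 in liver, 0.166 in heart, and 0.10 in gastrocnemius. By mean, muscle thus came after white fat and lung for *Ighm* but last for *Igkc* and *Jchain*. The *Ighm* ranges of neighbors in the order white fat, lung, muscle, heart, liver overlapped in each case. *Igha* was highest in lung at 29.3 RPKM, against 3.13 in white fat, 0.734 in liver, 0.225 in heart, and 0.064 in gastrocnemius. *Ighg2b* averaged 2.25 RPKM in lung, 0.906 in white fat, 0.148 in liver, 0.004 in heart, and 0.003 in gastrocnemius. *Ighg2c* averaged 6.21 in lung, 1.89 in white fat, 0.651 in heart, 0.212 in liver, and 1.27 in gastrocnemius, where the 40-week WT libraries held the highest values. The other tissues are from KO and KO+AAV mice only.

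**Figure D4:**
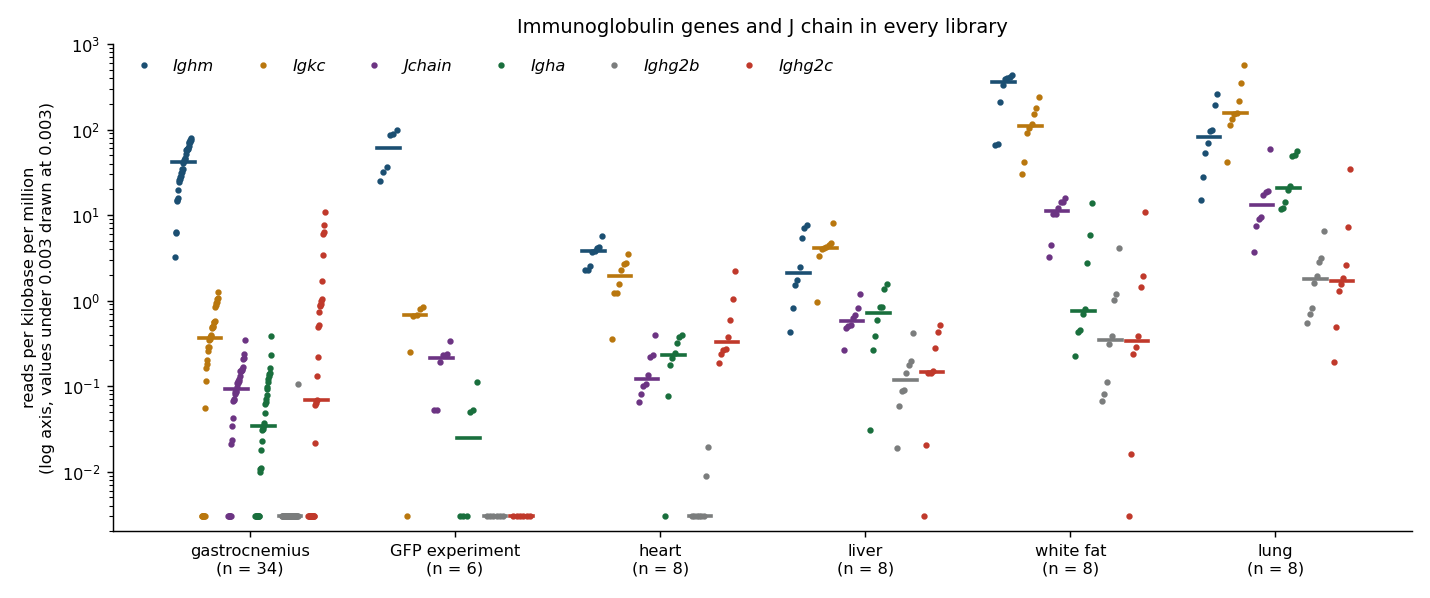
Level of each of the 6 genes in RPKM (log axis) by tissue, 1 point per library with the median as a line and values under 0.003 drawn at 0.003. *Ighm* spans 3.19 to 80.1 RPKM in gastrocnemius, and up to 433 in white fat, while *Igkc* and *Jchain* in gastrocnemius reach at most 1.24 and 0.345 RPKM, with *Igkc* at up to 566 RPKM in lung.

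The ratio of *Igkc* to *Ighm* RPKM had a median of 0.0083 in gastrocnemius (0 to 0.0622) and ranged from 1.60 to 5.38 in lung, 0.561 to 10.5 in liver, 0.125 to 1.56 in white fat, and 0.156 to 0.854 in heart. No muscle library reached the lowest library of another tissue. The 10 KO and KO+AAV muscle libraries at 40 weeks were set beside the 8 libraries of each tissue by the mean log2 ratio, a measure chosen after the values were seen and therefore given with no test. The log2 ratio was higher by 6.13 in lung, 5.66 in liver, 3.90 in heart, and 3.68 in white fat. The ratio of V segment reads to *Ighm* reads was higher by 6.07 in liver, 5.94 in lung, 4.35 in heart, and 4.17 in white fat on the log2 scale. Without the libraries that stood apart, the shifts were 3.76 to 6.22 for *Igkc* and 4.33 to 6.23 for V segments. The muscle libraries at 40 weeks were sequenced at Novogene and the tissues at ICBR, so site and tissue cannot be told apart in this set of libraries. Muscle libraries sequenced at ICBR exist only at 10 weeks. Their *Igkc* to *Ighm* ratio was at most 0.0314, below every library of the other tissues, but at another age.

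V segments were many in the tissues with light chain. Lung libraries held 826 to 10225 V segment reads over 83 to 163 segments with 3 or more reads, and white fat libraries 828 to 8198 over 47 to 114 segments. Heart libraries held 21 to 72 reads and liver libraries 41 to 178. Per 1000 *Ighm* reads, the median was 637 in liver, 506 in lung, 198 in heart, and 163 in white fat, against 1.56 in muscle. In lung the most abundant segment took 4.63% to 10.7% of V segment reads in all libraries but KO+AAV replicate 3, where *Igkv17-121* took 36.8%. In white fat KO replicate 1 *Igkv6-15* took 32.7%. In all 8 liver libraries the most abundant segment was *Ighv1-56*, at 8.40% to 51.4% of a small number of reads.

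B cell markers summed to 59.9 to 716 RPM in lung, 9.76 to 79.8 in white fat, 2.87 to 9.65 in heart, and 1.37 to 8.19 in liver, against 0.495 to 5.07 in muscle. *Cd79a* averaged 25.5 RPKM in lung and 2.10 in white fat, and *Ighd*, the IgD heavy chain of naive B cells, 28.6 and 2.27. Across the 8 lung libraries log2 *Ighm* had a Pearson correlation of 0.92 with *Igkc* and 0.86 with *Cd79a*, and of 0.67 with *Myh6*, which marks heart RNA in the sample. Across the 34 muscle libraries the correlation of *Ighm* was -0.08 with *Igkc* and -0.07 with *Cd79a*. These correlations share libraries and depth and are given as descriptions. In muscle *Igkc* and *Cd79a* had so few reads that counting error alone can hold a correlation near 0. *Pigr*, the receptor that carries polymeric IgA and IgM across epithelia, averaged 666 RPKM in liver and 0.009 in muscle.

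KO+AAV and KO mice did not differ past the threshold for any of the 6 genes in lung, heart, liver, or white fat. With 4 libraries a group, 0 members were called in each tissue, where 3.96% of all genes were called in lung, 0.0829% in heart, 0.546% in liver, and 0.0711% in white fat. At limma's *P* under 0.05 before adjustment, 3 members passed in lung, 0 in heart, 0 in liver, and 2 in white fat. DESeq2 on the recovered reads called *Ighg2c* in lung and in white fat.

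In lung, *Ighm* had 1294, 5766, 7704, and 7939 normalized counts in KO and 15545, 2343, 21314, and 4524 in KO+AAV mice, with a log2 fold change of 0.74 (95% CI -1.03 to 2.5, limma adjusted *P* = 0.744). *Jchain* had 430, 826, 1837, and 1026 in KO and 2006, 2130, 6412, and 1020 in KO+AAV lungs (1.35, 95% CI 0.08 to 2.62, limma adjusted *P* = 0.394). *Ighg2b* had 102, 82.0, 322, and 62.4 against 358, 230, 752, and 192 (1.53, 95% CI 0.28 to 2.77, limma adjusted *P* = 0.326). KO+AAV replicates 1 and 3 were the highest of the 8 lungs for *Ighm*, *Ighg2b*, and *Ighg2c*, and the groups overlapped for every gene. *Ighg2c* had 11.6, 151, 27.8, and 89.3 against 1956, 108, 416, and 76.5 (2.61, limma adjusted *P* = 0.388), *Igkc* 1016, 3115, 4890, and 3586 against 7877, 3559, 13034, and 2719 (1.04, limma adjusted *P* = 0.507), and *Igha* 1426, 1635, 5662, and 2497 against 1390, 6616, 5753, and 2364 (0.48, limma adjusted *P* = 0.775). The heart marker *Myh6* was higher in every KO+AAV lung than in every KO lung, and its part in these differences was not tested.

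In white fat, no member passed the threshold in limma, and the IgG members had the largest differences by size. *Ighg2c* had 700, 108, 77.0, and 18.3 normalized counts in KO and 1.0, 20.0, 16.3, and 0 in KO+AAV fat, with a log2 fold change of -4.33 (95% CI -7.44 to -1.21, limma adjusted *P* = 0.907). *Ighg2b* had 154, 43.2, 442, and 39.9 in KO and 13.5, 107, 11.2, and 9.18 in KO+AAV fat (-2.33, limma adjusted *P* = 0.907). *Ighm* had 37550, 5367, 16001, and 30485 against 33348, 4913, 41665, and 39380 (0.36, 95% CI -1.59 to 2.31, limma adjusted *P* = 0.919). The groups overlapped for all members, and replicate 2 was the lowest in *Ighm* in both groups. *Jchain* had 1255, 335, 1427, and 537 against 1815, 1003, 1538, and 1864 (1.0, limma adjusted *P* = 0.907), and *Igkc* 6187, 671, 3267, and 1078 against 4287, 2165, 2495, and 3223 (0.59, limma adjusted *P* = 0.907). *Igha* ranged from 58.2 to 631 in KO and from 31.0 to 1447 in KO+AAV fat (0.39, limma adjusted *P* = 0.940). Of the 6 other immunoglobulin constant genes tested in fat, 4 had higher means in KO+AAV mice (median 0.22), with 0 DEGs. Without KO replicate 2, the fat with the most epididymal transcripts, the log2 differences were -4.30 for *Ighg2c*, -2.75 for *Ighg2b*, -0.21 for *Ighm*, whose sign turned, 0.61 for *Jchain*, 0.073 for *Igkc*, and 0.14 for *Igha*, again with 0 members called.

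In liver, *Ighm* had 68.2, 563, 133, and 120 normalized counts in KO and 423, 34.7, 191, and 540 in KO+AAV mice (0.33, limma adjusted *P* = 0.998). *Igkc* had 22.4, 89.1, 72.9, and 90.7 against 103, 103, 88.9, and 177 (0.90, 95% CI -0.08 to 1.87, limma adjusted *P* = 0.998), and *Jchain* 29.4, 51.2, 64.3, and 52.7 against 50.2, 88.9, 70.1, and 122 (0.71, 95% CI -0.01 to 1.44, limma adjusted *P* = 0.998). *Ighg2b* differed by 1.33 (95% CI -0.05 to 2.72, limma adjusted *P* = 0.998), *Ighg2c* by 0.12, and *Igha* by 0.11. *Ighm* and *Igkc* were not highest in the same livers.

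In heart, *Ighm* had 195, 395, 300, and 272 normalized counts in KO and 412, 179, 317, and 211 in KO+AAV mice (-0.09, 95% CI -0.81 to 0.63, limma adjusted *P* = 0.944). *Ighg2c* had 11.1, 15.5, 59.5, and 104 against 14.0, 32.8, 15.3, and 22.0 (-0.68, limma adjusted *P* = 0.862). *Igha*, *Igkc*, and *Jchain* differed by -1.37, -0.24, and -0.33 on the log2 scale with intervals that included 0, and *Ighg2b*, at 0 to 2.59 normalized counts, was not tested. Without KO replicate 2, the heart with liver transcripts, the differences were 0.073 for *Ighm*, 0.028 for *Igkc*, and 0.17 for *Jchain*, whose signs turned, and -1.02 for *Ighg2c* and -1.31 for *Igha*, with 0 members called. The lists of plasma cell, B cell, T cell, and Fc receptor genes held 0 DEGs in each of the 4 tissues.

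**Figure D5:**
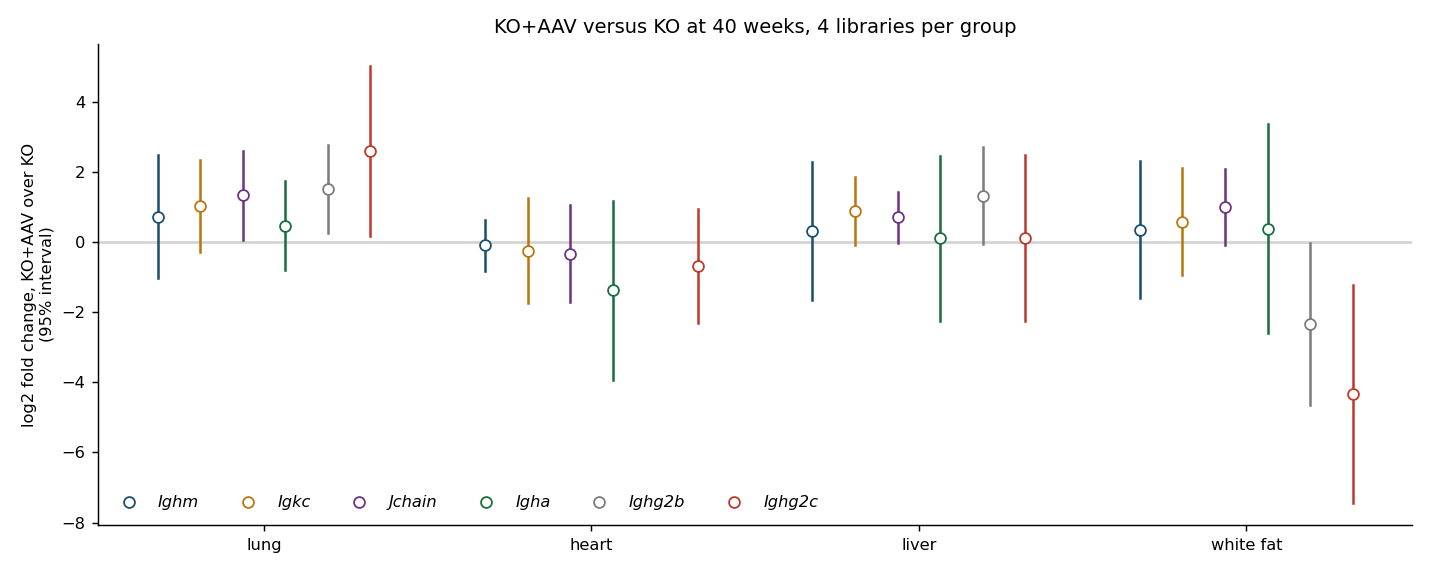
Log2 fold changes of the 6 genes in KO+AAV versus KO lung, heart, liver, and white fat at 40 weeks from limma, with 95% confidence intervals as bars and the line of no change at 0. The intervals are wide, and *Ighg2c* lies at 2.61 in lung and at -4.33 in white fat.

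The genes whose muscle pattern was most like the mean of the 6 members were found from the Pearson correlation of residuals after group and site over the 34 libraries, among 16178 genes. The first 8 were *Triqk* (0.66), *BC052040* (0.62), *Mgme1* (0.58), *D030055H07Rik* (0.58), *Gm2895* (0.58), *Gm10093* (0.57), *Coro2b* (0.57), and *Gm45767* (0.57). For *Ighm* alone, a ranking added after the values were seen, the first 8 included *Stxbp4* (0.85), *Egflam*, *Itga4*, *Emid1*, and *Smco1* (0.83 each), and *Tmem135* (0.82). Of the 13 plasma cell program genes, the 9 above the minimum mean could enter these rankings, and 0 were among the first 8 of either. The listed B cell markers, all below that minimum, could not enter, so their absence shows nothing.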

How the data were processed

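RNA-Seq of 72 mouse libraries was analyzed in groups taken from the sample labels. Per the submitters' processing notes and the paper's methods, reads of 2 × 150 bases were aligned with HISAT2 to GRCm38, counted per gene with HTSeq, and scaled with DESeq2; the annotation release and strand setting are not given in the sources used here. The deposited signal values are read counts divided by 1 size factor per library, made separately for each tissue and in a table of its own for the GFP experiment, so levels were compared across tables only as RPKM or RPM of recovered reads. Undoing the division gave whole reads (largest distance from a whole number 4.77e-05 for numbers under 10000). Depth limits precision most for genes near the minimum, and intervals on reads cover counting error only. Coordinates and exon lengths are from GENCODE vM21, and all 6 genes matched by symbol.

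Log2(normalized count + 1) was tested with limma 3.58.1 (intensity trend, R 4.3.3) for genes with a mean above 5, in 1 model of 34 gastrocnemius libraries (6 groups, site as covariate) and in a model for each tissue. DEGs have *P* under 0.01, the study's threshold, with Benjamini-Hochberg adjustment over all genes tested. Counting intervals were computed in scipy 1.17.1, tables were handled with pandas 2.3.3, and plots were made in Python 3.11.15 with matplotlib 3.10.9. Alternatives tried were adding 0.5 in place of 1, a minimum mean of 50 or none, edgeR 4.0.16 and DESeq2 1.42.0 on recovered reads, recomputed size factors, library weights, 2 groups alone, 1 site alone, no site term, the replicate number as a block, and each library left out.

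The members and gene lists were chosen with earlier results of these data known. All members are named; of a list, its 2 most abundant genes and any with *P* under 0.01 in the comparison described may be named, and likeness lists hold 8 genes outside the immunoglobulin loci. *Arntl*, *Alb*, *Gpx5*, *Myh6*, *Cd79a*, *Ighd*, *Ms4a1*, *Pigr*, and the genes ranked by likeness to *Ighm* alone were named after their values were seen. Not every gene of the latter ranking is reported here.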

Additional observations from a re-analysis of the deposited data

Results flagged for a closer look

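Of 77 combinations of a member and a group of 4 to 10 libraries searched for a library far from the rest, 10 had one. Chance gives about 1 in 20 for normally spread values, but several of these counts were at or next to 0 reads. The 10 flags are therefore not compared with that rate. In muscle, WT replicate 7 at 10 weeks had 1.51 normalized counts of *Ighg2c* (10.8 to 21.4 in the other WT libraries), and KO replicate 1 at 40 weeks had 1.38, a single read, where the others had 0. The library labelled KO replicate 2 at 40 weeks, whose *Arntl* goes against the label, held all muscle reads of *Ighg2b* (5.37 normalized counts). KO+AAV replicate 2 at 40 weeks had 102 normalized counts of *Ighm*, against 448 to 774 in the others. *Igkc* was at 0 in WT replicate 1 and *Jchain* at 0 in KO+AAV replicate 1, both at 40 weeks. *Igkc* was low in KO liver replicate 1 (22.4) and in KO heart replicate 1 (8.60). In KO+AAV white fat, replicate 2 had 4913 normalized counts of *Ighm* (33348 to 41665 in the others) and 107 of *Ighg2b* (9.18 to 13.5).

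Interactions with age past limma's *P* of 0.01 were WT versus KO for *Ighm* (2.15 on the log2 scale), WT versus KO for *Ighg2c* (3.19), and KO+AAV versus KO for *Ighg2c* (3.04). None passed adjustment in the values given above, and those for *Ighg2c* were no longer called with DESeq2 or edgeR. KO muscle had 0 *Ighg2c* reads at 10 weeks and 1 at 40 weeks, so the *Ighg2c* interactions rest on the change of WT and KO+AAV muscle with age.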

How the results depend on the processing

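In muscle a minimum mean of 50 removed *Ighg2c*, which left 0 members called when WT was compared with KO or with KO+AAV at 10 weeks, 1 and 1 at 40 weeks, 0 in KO+AAV versus KO at 40 weeks, 0 with age in WT and KO+AAV, and, against KO, 1 and 0 for the interactions of WT and of KO+AAV with age. These last counts were also 1 and 0 with DESeq2 and with edgeR, and the first was 1 with Novogene libraries alone. WT versus KO+AAV at 10 weeks had 2 with library weights, with the 2 groups alone, and with ICBR libraries alone. The 2 groups alone gave 1 in WT versus KO at 40 weeks and 0 with age in KO, as did Novogene libraries alone (0), which also gave 0 in KO+AAV versus KO at 10 weeks. DESeq2 called 1 member in lung and 1 in white fat, and weights 2 in white fat. Same-numbered 10-week libraries shared their site, and within sites the numbers did not pair them; the replicate block gave *Ighm* -1.25 in KO+AAV versus KO at 10 weeks, changed no muscle call, and called 2 members in lung (*Ighg2b* and *Jchain*). Leaving out 1 library gave 1 to 2 members in WT versus KO at 40 weeks, 0 to 1 in lung and in liver, and 0 to 2 in white fat. Signs turned for the *Ighg2c* interaction of WT versus KO+AAV (-0.33 with a pseudocount of 0.5, -1.36 DESeq2, -1.25 edgeR, -0.32 to 0.48 leaving out 1 library), with weights for *Ighm* (0.00448) and *Jchain* (0.20) in heart, *Ighg2c* (-0.15) and *Igha* (-0.42) in liver, and *Igha* in fat (-0.25), and with DESeq2 for *Ighg2c* in liver (-0.010). Leaving out 1 library spanned 0 for *Igha* (-0.44 to 1.35), *Ighg2c* (-0.86 to 0.79), and *Ighm* (-0.15 to 1.15) in liver, *Igha* (-0.63 to 1.21) and *Ighm* (-0.21 to 1.10) in fat, and *Ighm* (-0.30 to 0.10), *Igkc* (-0.94 to 0.028), and *Jchain* (-0.70 to 0.17) in heart. The cause of these changes was not tested, apart from the filter. In the GFP experiment the *Ighm* difference was -1.78 to -1.45 leaving out 1 library. Depth limits *Igkc*, *Jchain*, *Igha*, and *Ighg2b* in muscle.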
